A study of Mus musculus with 60 samples.

Results

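Whether the effect of BIO300 on the blood transcriptome differed between unirradiated and irradiated mice was examined as a BIO300 by irradiation interaction on Day 1. It compared 4 groups of 6 mice, 24 of the 60 mice of the series, chosen by their labelled treatment and time. All were male CD2F1 mice, 5 to 6 weeks of age, that were dosed 2 times a day for 6 days by oral gavage. Vehicle mice (animals 25 to 30) and BIO300-High mice (animals 43 to 48, 200 mg/kg a dose) were not irradiated. Vehicle + TBI mice (animals 49 to 54) and BIO300-High + TBI mice (animals 55 to 60, the same dose) received 9.2 Gy of 60Co total-body irradiation (TBI) 24 h after the last dose. Whole blood was drawn into PAXgene tubes 48 h after the last dose in all 4 groups, which was 24 h after TBI in the irradiated ones. The interaction is the log2 difference between BIO300 + TBI and vehicle + TBI mice minus the log2 difference between BIO300 and vehicle mice. A gene called higher is one whose BIO300 difference was more positive with TBI than without it, and a gene called lower is one whose BIO300 difference was more negative with TBI.

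BIO300 is an oral formulation of genistein, a soy isoflavone that binds estrogen receptors with a preference for the beta form. Whole blood RNA comes from leukocytes, from platelets, which carry RNA made by their megakaryocyte parents, and from reticulocytes, young red cells that still hold RNA. Lymphocytes are among the cells most sensitive to radiation, whereas neutrophils, platelets and red cells persist longer in blood. In a blood sample, fewer cells of a type and less RNA per cell cannot be told apart.

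The 24 libraries held 18332440 to 38551640 counts on genes, and 26875 of 49315 genes had at least 10 counts over the 24 mice and were tested. Levels are CPM, counts scaled to a common library size, after TMM scaling, which sets library sizes so that most genes are level between mice. The TMM factors ran from 1.26 to 1.74 in vehicle mice, from 0.48 to 0.78 in BIO300 mice, from 0.69 to 1.40 in vehicle + TBI mice and from 0.72 to 1.33 in BIO300 + TBI mice, so vehicle and BIO300 mice did not overlap in scaling. Blood identity was borne out by the markers: B cell, T cell, platelet and hemoglobin genes were present in every mouse. In 5 mice (29, 43, 49, 51 and 57) all 16 hepatocyte genes of a marker list were above 10 CPM, with albumin (Alb) from 401 CPM in mouse 43 to 15699 CPM in mouse 51, and at least 1 of these mice fell in each group. All 5 had odd numbers. The labels name a poly(A) selection, whereas the study's methods describe stranded total RNA with ribosomal and globin RNA removal. Whether counting used the strand is not given in the sources used here, so reads of genes that overlap on opposite strands may have been shared.

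The response to BIO300 differed with irradiation for 7945 of the 26875 genes (29.6%), at an adjusted p under 0.05 in edgeR's quasi-likelihood test and an absolute log2 interaction over 1. Of these, 5248 (19.5% of the genes tested) were called higher and 2697 (10%) were called lower. Genes of platelets, heme synthesis, red cell membranes and mitosis were the groups called lower, and genes of T cells, B cells, antigen presentation and nuclear noncoding RNA were the groups called higher. The shape was the same in both directions: BIO300 was linked to a large difference in unirradiated mice and to a small one in irradiated mice. Without irradiation, 11402 genes (42.4%) differed between BIO300 and vehicle mice, 3501 higher and 7901 lower with BIO300. With irradiation, 0 genes (0%) passed the same thresholds in edgeR, 1266 had an unadjusted p under 0.05, the smallest adjusted p was 0.45, and DESeq2 called 1 gene. A missed threshold does not show that the irradiated groups were alike, and the interaction test is the comparison of the 2 arms.

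Among the 7945 interacting genes, 7814 (98.4%) had the larger BIO300 difference in the unirradiated arm, beside 82.0% of all genes tested. In the irradiated arm, 6412 of them (80.7%) had a BIO300 difference within 0.5 log2 of 0, beside 67.7% of all genes. The genes called higher had a median BIO300 log2 difference of −2.67 without irradiation and −0.02 with it, and those called lower had medians of 1.96 and 0.12. Since the 2 arms share no mice, their log2 differences can be set against each other: across all genes Pearson's r was 0.09 and Spearman's rho 0.19, and across the 7979 genes with a group mean of at least 10 CPM they were 0.20 and 0.47. These correlations are across genes, which are not independent replicates, and both arms share the scaling. The called genes were chosen by the difference of these same 2 arms. Over all genes tested, the SD of the BIO300 log2 difference was 1.87 without irradiation and 0.94 with it. The shares and medians of the called genes therefore follow in part from their selection and are a description only. The scatter of the arms shows the called genes spread along the unirradiated axis.

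**Figure D1:**
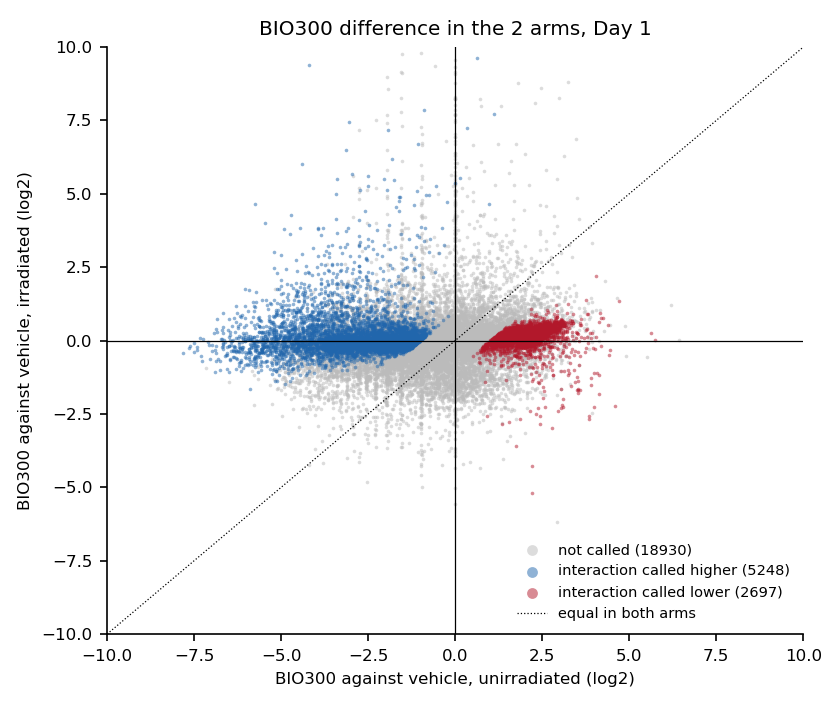
BIO300 minus vehicle log2 difference of each gene tested in unirradiated mice (x axis) against the same difference in irradiated mice (y axis), with genes coloured by their interaction call. The 5248 genes called higher lie mostly to the left of 0, the 2697 called lower lie mostly to the right, and in both sets the irradiated difference is mostly near 0.

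The same interaction can be read as the effect of TBI in each treatment, with contrasts that share these mice. TBI changed 8304 genes (30.9%) in vehicle mice, 5141 up and 3163 down, and 6864 genes (25.5%) in BIO300 mice, 5840 up and 1024 down. For the genes called higher, the median TBI log2 difference was −0.93 in vehicle mice and 1.91 in BIO300 mice. For those called lower it was 1.48 in vehicle mice and −0.28 in BIO300 mice. These medians also follow in part from the selection of the genes by the interaction.

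Scaling bears on every direction given here. The median log2 interaction over all genes was 0.60, and with library sizes taken as plain total counts it was 1.68. Total counts gave 12208 calls, 11725 higher and 483 lower (96.0% higher, against 66.1% with TMM), and upper-quartile factors gave 4014 higher and 3398 lower (54.2% higher). The part of scaling in single directions was not tested beyond these alternatives, and the difference between list levels inside a mouse, given below, does not depend on it apart from the pseudocount. The 12 odd-numbered mice alone, which include the 5 mice with hepatocyte transcripts, gave 764 calls and the 12 even-numbered mice alone 6965, and the cause of this difference was not tested.

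Platelet genes formed the most uniform group called lower. Of 25 platelet genes, 24 were called lower and 0 higher, against a background of 10% called lower, with a median log2 interaction of −2.44 beside 0.60 over all genes. Their median BIO300 log2 difference was 2.95 in unirradiated mice and 0.46 in irradiated mice. The 13 surface receptors and integrins were all called lower, with interactions from −2.75 to −2.03. They included the glycoprotein Ib-V-IX chains that bind von Willebrand factor (Gp1bb −2.68, Gp5 −2.63, Gp1ba −2.18) and the fibrinogen receptor chains Itga2b (−2.53) and Itgb3 (−2.37). Granule genes called lower included Pf4 (platelet factor 4, −2.50), Ppbp (−2.44), Vwf (−2.52) and Thbs1 (−2.51). Sparc, a granule matrix protein, had an interaction of −2.08 and was the 1 member that missed the threshold.

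For single genes, the lowest, the median and the highest mouse of each group of 6 are given in that order. Treml1, a receptor of platelet alpha granules, stood at 43.5, 55.5 and 94.8 CPM in vehicle mice and at 424, 604 and 708 CPM in BIO300 mice. In irradiated mice it stood at 93.0, 375 and 668 CPM with vehicle and at 169, 497 and 840 CPM with BIO300. The unirradiated groups did not overlap, and the irradiated groups overlapped over most of their range. The log2 interaction was −2.75 ± 0.50 (SE), with an adjusted p of 0.000376 in edgeR.

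Clu, the chaperone clusterin of platelet granules, stood at 159, 223 and 348 CPM in vehicle mice and at 1346, 2067 and 2214 CPM in BIO300 mice. With TBI it stood at 1047, 1596 and 2700 CPM in vehicle mice and at 847, 1859 and 3185 CPM in BIO300 mice. Vehicle mice without irradiation were the low group, and the other groups overlapped each other (interaction −2.72 ± 0.40, adjusted p = 8.54e-05, edgeR). F11r, a junctional adhesion molecule of platelets and other cells, had the same pattern at a lower level. It stood at 4.30, 5.89 and 8.76 CPM in vehicle mice against 45.9, 56.8 and 60.6 CPM in BIO300 mice, and at 33.8, 45.1 and 66.3 CPM against 35.1, 48.4 and 86.9 CPM after TBI. Its interaction of −2.91 ± 0.32 (adjusted p = 1.40e-05, edgeR) was among the 6 largest called lower at 10 CPM or more. Tbxas1, the thromboxane synthase, was called lower as well (−2.15 ± 0.39, adjusted p = 0.000382).

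The mean platelet level, the average log2(CPM + 1) over the list, ran from 6.06 to 7.06 in vehicle mice and from 8.81 to 9.46 in BIO300 mice. With TBI it ran from 7.79 to 9.88 in vehicle mice and from 8.32 to 10.1 in BIO300 mice. The 6 vehicle mice lay below the 18 others. Inside each mouse, the platelet level minus the T cell level was 0.51 to 1.65 in vehicle mice, 4.90 to 7.08 in BIO300 mice, 5.39 to 7.48 in vehicle + TBI mice and 5.58 to 6.88 in BIO300 + TBI mice. Total-count scaling left 18 of the 24 platelet calls, with a median of −1.26, and the 12 odd-numbered mice alone left 3.

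**Figure D2:**
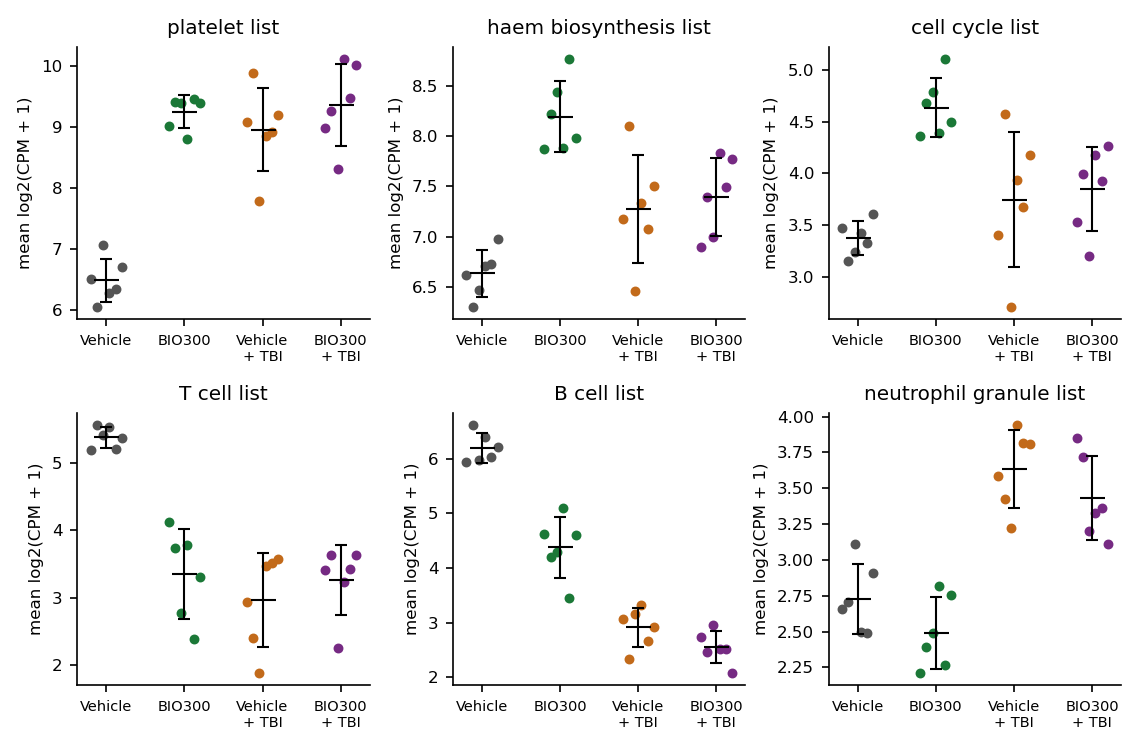
Mean log2(CPM + 1) over the genes of 6 marker lists (y axis) in each mouse of the 4 groups (x axis), with the group mean ± SD of 6 mice. Vehicle mice stand below the other groups for platelet genes (6.06 to 7.06) and above them for T cell genes (5.19 to 5.55).

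Red cell genes were called lower in smaller numbers, here set beside the 10% called lower of all genes. Of 8 heme synthesis enzymes, 7 were called lower and 0 higher (median −1.52), the exception being Uros at −0.94. Of 18 red cell membrane genes, 10 were called lower (median −1.57), 9 of the 11 genes of the band 3 and Rh complexes and 1 of the 7 spectrin skeleton genes. Dmtn (dematin, −1.56) was the skeleton gene called, while the spectrin chain Sptb had a value of −0.79 and was not called. Of 17 genes of reticulocyte maturation, which clear organelles and take up iron, 10 were called lower (median −1.40). Of 10 hemoglobin genes, 5 were called lower (median −1.92).

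Rhag, the Rh-associated glycoprotein, stood at 20.2, 30.6 and 34.5 CPM in vehicle mice and at 90.4, 127 and 232 CPM in BIO300 mice. After TBI it stood at 19.5, 88.9 and 168 CPM with vehicle and at 35.0, 98.6 and 130 CPM with BIO300. The unirradiated groups were apart and the irradiated groups overlapped (interaction −2.24 ± 0.50, adjusted p = 0.00159, edgeR). Tfrc, the transferrin receptor that takes up iron, stood at 155, 201 and 238 CPM in vehicle mice and at 583, 719 and 1629 CPM in BIO300 mice. With TBI the 2 treatments overlapped, at 149, 595 and 1116 CPM and at 314, 604 and 756 CPM (interaction −2.26 ± 0.49, adjusted p = 0.00137).

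The hemoglobin genes called were Hba-a1 (−2.27), Hba-a2 (−2.38), the theta chains Hbq1a (−1.93) and Hbq1b (−1.92), and the embryonic Hbb-bh1 (−4.37). Hba-a2 stood at 303, 334 and 486 CPM in vehicle mice, 1202, 2618 and 6393 CPM in BIO300 mice, 160, 428 and 902 CPM in vehicle + TBI mice and 188, 608 and 1840 CPM in BIO300 + TBI mice. Unirradiated BIO300 mice had the highest median, and their range met only that of the BIO300 + TBI mice. The paired alpha and theta genes are near copies, so the split of reads within each pair is uncertain. Adult beta chains had interactions of −1.50 (Hbb-bs) and −0.62 (Hbb-bt) that missed the thresholds. Since the methods describe globin RNA removal, the level of these genes also depends on that step. Hemoglobin genes took a mean of 10.0% of counts in vehicle mice, 16.1% in BIO300 mice, 7.98% in vehicle + TBI mice and 11.1% in BIO300 + TBI mice.

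Of the heme enzymes, Cpox (coproporphyrinogen oxidase) stood at 12.1, 18.1 and 30.4 CPM in vehicle mice and at 31.3, 44.3 and 57.9 CPM in BIO300 mice. It stood at 31.5, 41.5 and 74.4 CPM in vehicle + TBI mice and at 34.7, 38.9 and 49.4 CPM in BIO300 + TBI mice, so vehicle mice without irradiation were again the low group (interaction −1.41 ± 0.31, adjusted p = 0.00144). Alas2, which makes the first heme precursor in red cells, had an interaction of −2.0, Alad −2.02, Urod −1.93 and Fech, which inserts the iron, −1.62. With total-count scaling the heme list had a median of −0.29 and 0 calls, the membrane list −0.34 and 1, the reticulocyte list −0.17 and 0, and the hemoglobin list −0.67 and 1, all still below 0.

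Of 12 erythroid and megakaryocyte transcription factors, 7 were called lower (58.3%, beside 10% of all genes) and 1 higher (median −1.24). Those called lower were Tal1 (−2.18), Gfi1b (−2.15), Nfe2 (−2.0), Gata1 (−1.88), Klf1 (−1.49), Zfpm1 (−1.29), which encodes the GATA1 partner FOG1, and Mafg (−1.18). Ldb1, a bridging factor of the same complexes that is used in many cell types, was called higher (1.07 ± 0.18, adjusted p = 0.000262), and without mouse 51 its size was just under the threshold (0.99). The Ldb1 call was also lost with DESeq2 (0.93), with its size factors (0.94), with upper-quartile factors (0.75) and in odd-numbered mice alone. Tal1 stood at 25.6, 37.0 and 50.3 CPM in vehicle mice, 167, 236 and 278 CPM in BIO300 mice, 70.9, 220 and 453 CPM in vehicle + TBI mice and 113, 324 and 446 CPM in BIO300 + TBI mice. Vehicle mice without irradiation lay below every other mouse.

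GATA1 binds DNA at the letters AGATAA or TGATAA, and KLF1 at CCACACCC, so both were searched on both strands in the 250 bases before each start in the RefSeq promoter table (GRCm38.p6). The GATA letters stood in 16 of 49 promoters of the red cell lists (32.7%), in 18.2% of 22 platelet promoters, in 13.0% of 23 T cell and 5.26% of 19 B cell promoters, and in 16.6% of all 32851 promoters in the table. Over genes tested they stood in 11.6% of promoters, with 11.6% among genes called higher and 12.2% among genes called lower. The KLF letters stood in 3.20% of all promoters and in 1 of the 49 red cell promoters. Of 21 named genes of these lists, 16 had a promoter in the table. Among the named red cell genes, Hba-a2, Cpox and Rhag held the GATA letters. Hbq1a, Hbq1b, Urod, Ppox, Aqp1, Tfrc and Fam210b held none, and neither did the named platelet, B cell and T cell genes with a promoter. The promoters of 3 named red cell genes that hold the GATA letters are shown, with those letters in capitals (TTATCA is TGATAA on the other strand), beside those of a platelet gene and, for 1 of its 2 listed starts, a T cell gene that hold none. Hba-a2 is at chr11:32296242-32296491, Cpox at chr16:58669958-58670207, Rhag at chr17:40810899-40811148, Treml1 at chr17:48359666-48359915 and Themis at chr10:28668110-28668359, all on the plus strand.
Hba-a2: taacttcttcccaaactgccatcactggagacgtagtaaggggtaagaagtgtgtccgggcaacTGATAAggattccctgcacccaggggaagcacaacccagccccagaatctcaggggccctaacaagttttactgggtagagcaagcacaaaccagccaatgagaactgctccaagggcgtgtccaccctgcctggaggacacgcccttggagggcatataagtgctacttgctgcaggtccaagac
Cpox: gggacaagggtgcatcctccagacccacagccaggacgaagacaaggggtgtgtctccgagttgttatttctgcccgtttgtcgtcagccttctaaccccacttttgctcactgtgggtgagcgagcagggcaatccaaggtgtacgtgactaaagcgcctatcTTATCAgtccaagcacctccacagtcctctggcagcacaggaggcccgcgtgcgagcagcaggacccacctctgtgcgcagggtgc
Rhag: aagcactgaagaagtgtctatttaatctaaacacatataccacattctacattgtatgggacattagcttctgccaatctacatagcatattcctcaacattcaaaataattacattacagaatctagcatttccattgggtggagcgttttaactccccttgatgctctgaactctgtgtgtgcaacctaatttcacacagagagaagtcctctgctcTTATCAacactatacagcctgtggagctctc
Treml1: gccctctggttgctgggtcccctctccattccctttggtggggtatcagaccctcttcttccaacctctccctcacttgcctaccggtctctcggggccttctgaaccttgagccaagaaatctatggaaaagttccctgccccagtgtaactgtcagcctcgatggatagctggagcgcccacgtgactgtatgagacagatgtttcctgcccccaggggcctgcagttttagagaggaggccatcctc
Themis: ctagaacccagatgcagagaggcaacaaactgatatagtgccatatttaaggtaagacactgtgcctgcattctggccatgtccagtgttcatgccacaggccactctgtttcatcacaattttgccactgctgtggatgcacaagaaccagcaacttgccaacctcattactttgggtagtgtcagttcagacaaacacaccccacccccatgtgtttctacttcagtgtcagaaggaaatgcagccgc
A match is a description of the letters only, and its absence says that they are not in this window.

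Genes of dividing cells were called lower, with 23 of 34 cell cycle genes lower and 0 higher (median −1.51). The share called lower was 67.6%, beside 10% of all genes. Among 18 genes of mitosis, 16 were called lower (median −2.0), and among 16 genes of DNA replication 7 were (median −0.77). The replicative helicase was split: Mcm3 was called lower (−2.04) and Mcm10 (−2.99), a helicase activator outside the list, was among the 6 largest, while Mcm2, Mcm4, Mcm5, Mcm6 and Mcm7 had values from −0.74 to 0.07 that were not called. Top2a, the topoisomerase that untangles chromosomes, stood at 25.9, 37.9 and 46.8 CPM in vehicle mice and at 119, 161 and 260 CPM in BIO300 mice. After TBI it stood at 22.5, 63.1 and 138 CPM with vehicle and at 43.3, 75.7 and 90.5 CPM with BIO300. The unirradiated groups were apart and the irradiated groups overlapped (interaction −2.32 ± 0.44, adjusted p = 0.000476, edgeR).

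Kif23, a kinesin of cell division, and Ccne2, cyclin E2, had interactions of −2.14 ± 0.38 and −2.30 ± 0.40. Of 61 histone cluster genes, 16 were called lower and 1 higher (median −0.98), led by Hist1h2bc (−2.26). DNA damage genes were split: those called lower included Brca2 (−1.73), Fancd2 (−1.96) and Chek1 (−1.55), whereas Atm (1.11), Atr (1.28), Trp53bp1 (1.28), Lig4 (1.31) and Rpa1 (1.12) were called higher. In total 6 of the 26 DNA damage genes were called lower (23.1%) and 5 higher (19.2%), beside 10% and 19.5% of all genes (median 0.18). The lower and higher calls became 6 and 3 with DESeq2, 6 and 0 with upper-quartile factors (median −0.17) and 0 and 18 with total counts (median 1.36). With total-count scaling the cell cycle list had 5 calls in each direction (median −0.28), and the histone list median turned to 0.18.

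T cell genes were called higher without exception: 21 of 21 T cell genes, against a background of 19.5% called higher, with a median interaction of 2.37. Their median BIO300 log2 difference was −2.14 in unirradiated mice and 0.26 in irradiated mice. They covered the receptor complex (Cd3e 2.54, Cd3d 1.71, Cd3g 1.79, Cd247 2.02), the co-receptors (Cd4 2.5, Cd8a 2.87, Cd8b1 3.06), signaling (Lck 1.86, Zap70 1.67) and the transcription factors Bcl11b (2.76), Lef1 (2.59) and Tcf7 (2.34). Of 99 variable segments of the T cell receptor, 29 were called higher and 0 lower (median 2.15), and of 69 joining segments 44 were called higher and 1 lower (median 4.09). The mean log2(CPM + 1) of the variable segments was 0.47 in vehicle, 0.19 in BIO300, 0.17 in vehicle + TBI and 0.20 in BIO300 + TBI mice. Their log2 values thus rest on low counts, and the level of the joining segments is not reported here.

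Themis, a signaling protein of T cell development, stood at 27.6, 32.0 and 37.5 CPM in vehicle mice and at 3.39, 7.09 and 9.47 CPM in BIO300 mice. With TBI it stood at 2.20, 6.42 and 8.02 CPM in vehicle mice and at 2.37, 7.46 and 8.77 CPM in BIO300 mice. Vehicle mice without irradiation were the high group, and the 3 other groups overlapped (interaction 2.49 ± 0.43, adjusted p = 0.000265, edgeR). Its TBI log2 difference was −2.48 in vehicle mice and 0.01 in BIO300 mice. Cd28, the co-stimulatory receptor, stood at 43.2, 48.6 and 56.5 CPM in vehicle mice and at 13.9, 16.7 and 25.8 CPM in BIO300 mice, and with TBI at 5.15, 16.5 and 18.1 CPM and at 8.80, 22.7 and 28.2 CPM (interaction 1.95 ± 0.37, adjusted p = 0.000546). Ccr7, the chemokine receptor that leads naive T cells to lymph nodes, had an interaction of 2.47 ± 0.57. All 21 T cell calls held with total counts (median 3.46), 18 held with upper-quartile factors, and 0 passed in the 12 odd-numbered mice alone, where the median was 2.46.

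B cell genes were called higher in part. Of 21 B cell genes, 15 were called higher and 0 lower (median 1.39), 9 of 11 genes of the receptor and its co-receptors and 6 of 10 genes of transcription and signaling. Their median TBI log2 difference was −3.38 for receptor genes in vehicle mice and −1.95 in BIO300 mice, and for the T cell receptor complex it was −2.21 and −0.06. The lists were not tested against each other. Cd22, an inhibitory B cell co-receptor, stood at 89.1, 112 and 130 CPM in vehicle mice, 9.79, 23.2 and 45.6 CPM in BIO300 mice, 12.1, 22.6 and 27.1 CPM in vehicle + TBI mice and 12.0, 16.0 and 20.5 CPM in BIO300 + TBI mice. Vehicle mice stood above the other 3 groups, which overlapped (interaction 1.75 ± 0.36, adjusted p = 0.000946). Ebf1, a factor that sets B cell identity, stood at 39.8, 60.2 and 74.1 CPM in vehicle mice and at 5.65, 13.2 and 21.2 CPM in BIO300 mice, against 2.16, 4.73 and 7.85 CPM and 2.25, 2.95 and 10.2 CPM after TBI (interaction 1.98 ± 0.49, adjusted p = 0.00371). For Ebf1 both irradiated groups had medians below that of the unirradiated BIO300 group, and the ranges overlapped in part.

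Immunoglobulin variable segments followed, with 46 of 242 called higher and 0 lower (median 1.64), a share near the 19.5% background. Of 12 constant region genes 6 were called higher. In antigen presentation by MHC class II, 6 of 11 genes were called higher (median 1.36): Ciita, the master factor of the class (1.67), H2-Ob (2.25), H2-Oa (1.40), H2-DMb1 (2.21), H2-DMb2 (1.5) and H2-Ab1 (1.36). H2-Ob stood at 63.9, 66.3 and 99.1 CPM in vehicle mice, 7.91, 11.7 and 23.3 CPM in BIO300 mice, 1.35, 2.95 and 4.65 CPM in vehicle + TBI mice and 2.20, 2.53 and 3.73 CPM in BIO300 + TBI mice. Here the 4 groups formed 3 steps, with both irradiated groups at the bottom. Of 17 MHC class I genes, 6 were called higher and 1 lower. Tap2, a peptide transporter, stood at 20.2, 22.8 and 26.7 CPM in vehicle mice and at 1.98, 6.30 and 10.6 CPM in BIO300 mice, while the irradiated groups stood at 13.9, 23.1 and 32.0 CPM and at 15.5, 20.8 and 26.4 CPM. In contrast to the T cell genes, Tap2 was low in unirradiated BIO300 mice alone (interaction 1.61 ± 0.37, adjusted p = 0.00217).

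**Figure D3:**
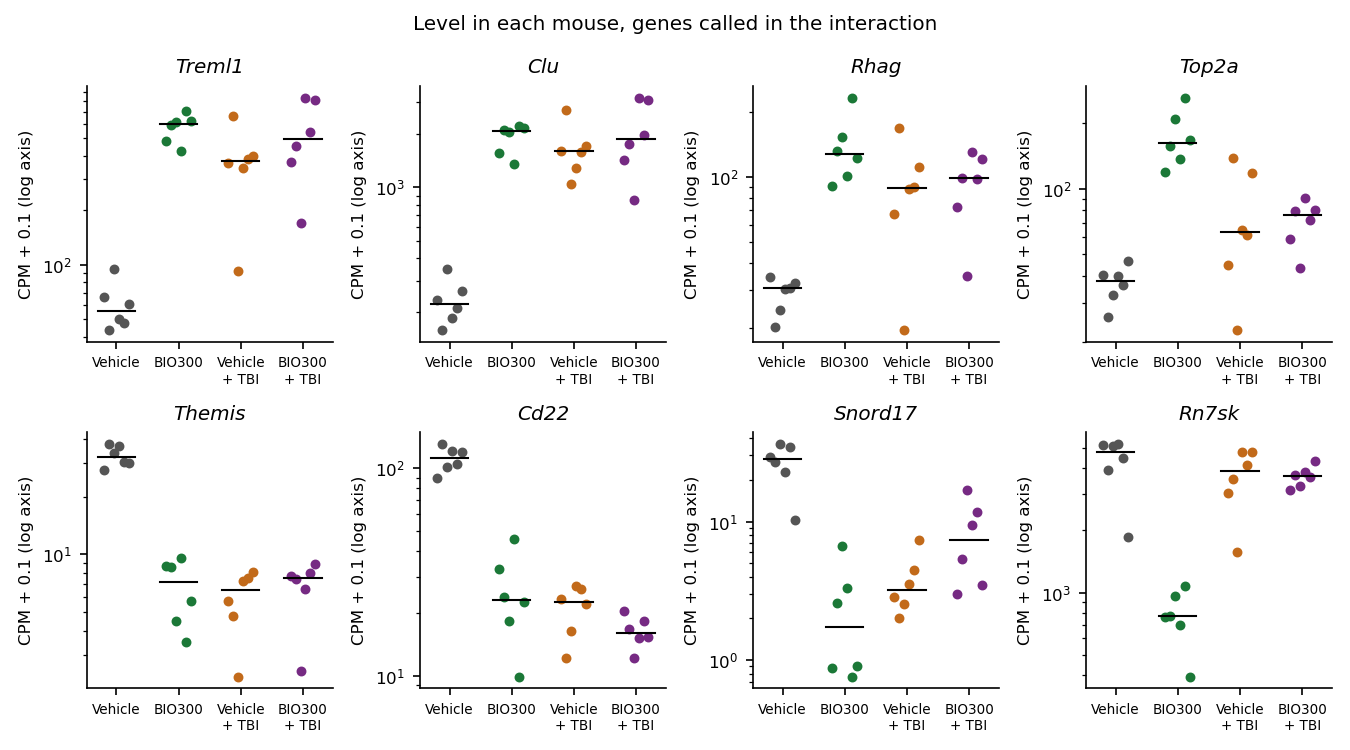
CPM of 8 named genes in each mouse (points, log axis, 0.1 CPM added) by group, with a line at the group median of 6 mice. Treml1, Clu and Rhag have their lowest median in vehicle mice (Treml1 55.5 CPM), Themis and Cd22 their highest (Themis 32.0 CPM), and Rn7sk is low in unirradiated BIO300 mice (median 767 CPM).

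Innate cell genes were called in fewer cases. Of 15 NK cell genes, 0 were called in edgeR (median 0.48). Of 13 neutrophil granule genes 1 was called higher, Chil3 (2.20), which monocytes also express, and of 14 mature neutrophil surface genes 2 were called higher (among them Ptgs2) and 2 lower (Clec4d, Trem1). Of 21 monocyte genes 5 were called higher (among them Chil3, Pou2f2, Spn and Ccr2) and 1 lower (F10). The share called higher was 23.8%, near the 19.5% background. Pou2f2, a transcription factor of B cells and monocytes, stood at 56.3, 64.0 and 77.0 CPM in vehicle mice, 8.10, 20.0 and 34.1 CPM in BIO300 mice, 7.89, 12.7 and 14.6 CPM in vehicle + TBI mice and 9.16, 11.4 and 13.7 CPM in BIO300 + TBI mice. Vehicle mice stood above the other 3 groups (log2 interaction 1.65, adjusted p = 0.000666, edgeR). Of 16 chemokine receptors, 4 were called higher and 0 lower (median 1.43), a share of 25.0% beside the 19.5% background. Of 14 basophil and eosinophil genes, 2 were called higher, 1 lower and 11 not called, with a median of 0.37 that was −0.37 in even-numbered mice alone. The protease Mcpt8 (3.02) and the receptor Cd200r3 (1.87) were called higher, and the factor Gata2, which megakaryocytes and basophils share, was called lower (−1.53).

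Of 24 toll-like receptor genes and adaptors, 6 were called higher and 0 lower (median 0.70), a share of 25.0% beside the 19.5% background: Tlr1 (1.86), Tlr6 (1.62), Tlr7 (1.16), Tlr8 (1.15), Tlr9 (1.91) and the trafficking protein Unc93b1 (1.40). Tlr9 stood at 13.2, 16.0 and 20.9 CPM in vehicle mice, 0.85, 2.95 and 7.32 CPM in BIO300 mice, 1.22, 2.52 and 2.96 CPM in vehicle + TBI mice and 1.10, 2.04 and 2.57 CPM in BIO300 + TBI mice. Tlr6 stood at 12.8, 15.5 and 16.4 CPM in vehicle mice and at 2.35, 4.43 and 6.37 CPM in BIO300 mice, against 16.7, 44.5 and 62.9 CPM and 18.1, 30.6 and 68.1 CPM after TBI. Tlr9 thus sat low in all groups but vehicle, and Tlr6 sat lowest in unirradiated BIO300 mice, next in vehicle mice and highest in both irradiated groups. Of the other receptors named by the study, Tlr2 (0.95 ± 0.36), Tlr4 (0.72 ± 0.34) and Tlr5 (0.70 ± 0.41) missed the thresholds. With total counts all 3 passed them, and Tlr2 also passed with TMM factors from annotated symbols (1.01) and in 7 of 24 fits that left out 1 mouse. The Tlr8 call was lost without mouse 55 (0.98) and with upper-quartile factors (0.85).

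Several noncoding RNA classes held more genes called higher than the protein-coding class. The share was 49.0% of 192 sense intronic transcripts, 44.6% of 1529 transcripts still to be tested by experiment (class TEC), 33.7% of 365 small nuclear RNA genes, 33.0% of 306 small nucleolar RNA genes and 31.9% of 1628 antisense genes, beside 14.6% of 16856 protein-coding genes. Called lower were 13.1% of protein-coding genes, 2.29% of TEC genes, 0.27% of small nuclear RNA genes and 1.63% of small nucleolar RNA genes. Of 7446 predicted genes with a Gm symbol, 2083 were called higher and 355 lower (median 1.67). The shares also differed by expression level, beside 19.5% called higher and 10% lower of all genes tested. Of 11875 genes under 1 CPM in every group, 2168 (18.3%) were called higher and 267 (2.25%) lower. Of 7021 genes with a highest group mean of 1 to 10 CPM, 1950 (27.8%) were called higher and 619 (8.82%) lower. Of 7979 genes with a group mean of at least 10 CPM, 1130 (14.2%) were called higher and 1811 (22.7%) lower. At that level the median interaction was −0.10.

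Snord17, a small nucleolar RNA that guides modification of ribosomal RNA, stood at 10.2, 28.2 and 36.1 CPM in vehicle mice and at 0.66, 1.64 and 6.52 CPM in BIO300 mice. With TBI it stood at 1.92, 3.10 and 7.21 CPM in vehicle mice and at 2.91, 7.30 and 16.8 CPM in BIO300 mice. Its interaction of 4.63 ± 0.76 (adjusted p = 0.000185, edgeR) was the largest of a noncoding gene at 10 CPM or more, and the irradiated groups overlapped. Rn7sk, the 7SK RNA that holds back transcription elongation, stood at 1860, 4803 and 5242 CPM in vehicle mice and at 391, 767 and 1071 CPM in BIO300 mice, against 1581, 3867 and 4788 CPM and 3158, 3664 and 4322 CPM after TBI. Only unirradiated BIO300 mice were low (interaction 2.47 ± 0.40, adjusted p = 0.000153), and TBI left vehicle mice at a log2 difference of −0.24. Rmrp, the RNA of RNase MRP, had an interaction of 2.81 ± 0.42, and the Cajal body RNAs Scarna10 and Scarna2 had 2.63 ± 0.54 and 1.69 ± 0.38.

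The long noncoding RNA Gm15675 stood at 16.1, 21.9 and 27.5 CPM in vehicle mice, 0.85, 2.38 and 3.53 CPM in BIO300 mice, 1.55, 2.01 and 2.5 CPM in vehicle + TBI mice and 1.40, 1.75 and 1.82 CPM in BIO300 + TBI mice (interaction 2.98 ± 0.34, adjusted p = 1.40e-05). It lies on chromosome 1 from 130429781 to 130437191 inside the span of Gm15674 (130422824 to 130437914) on the opposite strand, so reads of the pair (Gm15674 interaction 2.61 ± 0.33) may have been shared. E030022I16Rik, a TEC transcript, was high in all groups but 1: it stood at 7.20, 10.3 and 12.5 CPM in vehicle mice, 0.20, 0.60 and 1.35 CPM in BIO300 mice, 5.04, 9.89 and 13.8 CPM in vehicle + TBI mice and 4.11, 7.49 and 15.4 CPM in BIO300 + TBI mice (interaction 3.71 ± 0.53). Neat1 and Kcnq1ot1, which stay in the nucleus, had interactions of 1.10 ± 0.28 and 1.36 ± 0.26, and Malat1 had 0.69, which was not called. The Neat1 call was lost without mouse 50, without mouse 55, with DESeq2 (0.97), with its size factors (0.97), with upper-quartile factors (0.80) and in the odd-numbered or even-numbered mice alone.

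Gm26917 is annotated as a long noncoding RNA gene on chromosome 17 (39843013 to 39846341). It took a mean of 7.30% of counts in vehicle mice, 0.40% in BIO300 mice, 3.31% in vehicle + TBI mice and 2.30% in BIO300 + TBI mice (interaction 2.71 ± 0.83, adjusted p = 0.0139). It stood at 42196, 47156 and 50433 CPM in vehicle mice and at 1176, 2822 and 18898 CPM in BIO300 mice. The irradiated groups overlapped widely, at 6445, 17856 and 66360 CPM and at 14157, 17237 and 40752 CPM. Counts on this gene, on Rn7sk and on the TEC class (means of 0.242%, 0.0449%, 0.173% and 0.147% of counts in the same order of groups) were lowest in unirradiated BIO300 mice by their means, and their part in the calls of other genes was not tested. Gm42418, another abundant predicted transcript, went the other way, with means of 2.47%, 5.19%, 2.26% and 2.52% of counts (log2 interaction −2.12). The methods describe ribosomal RNA removal, and the part of that step in the levels of Gm26917 and Gm42418 was not tested. Leaving out mouse 43, which had the highest Gm26917 share of the BIO300 mice, gave 8422 calls. By gene length, protein-coding genes at 1 CPM or more that were called lower had a median genomic span of 35.8 kb, those called higher 19.7 kb and those not called 24.1 kb. The share called lower was 12.8% of genes up to 10 kb and 25.9% of genes over 100 kb, and the share called higher was 16.9% and 12.0%.

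Genes of small predicted RNAs were also found among those called lower. Gm25732 and Gm24245, annotated microRNA genes within 200 bases of each other on chromosome 4, stood at medians of 7.98 and 1.72 CPM in vehicle mice and of 84.0 and 22.4 CPM in BIO300 mice. Their medians were 22.3 and 6.29 CPM in vehicle + TBI mice and 21.4 and 4.34 CPM in BIO300 + TBI mice, with interactions of −3.38 ± 0.52 and −3.40 ± 0.62. Both had their highest median in unirradiated BIO300 mice.

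Among housekeeping groups, 8 of 82 cytosolic ribosomal protein genes were called lower and 1 higher (median 0.03), a share of 9.76% beside the 10% background, led by Rpl41 (−2.70 ± 0.51). Their mean level was 6.22 to 6.61 in vehicle mice and 6.30 to 6.84 in BIO300 mice, and it was lower in every irradiated mouse, at 5.22 to 5.58 with vehicle and 5.08 to 5.82 with BIO300. Of 75 nuclear genes of oxidative phosphorylation, 17 were called lower (22.7%) and 1 higher (1.33%), beside 10% and 19.5% of all genes. Those called lower included the small subunits Cox8a (−1.94), Ndufa3 (−1.70) and Ndufa4 (−1.55), and the list median was 0.27. Of 13 protein genes of mitochondrial DNA, 4 were called lower (30.8%), mt-Co1, mt-Co2, mt-Co3 and mt-Atp6, which encode subunits of complex IV and of the ATP synthase. Of 39 proteasome subunits, 2 were called lower (5.13%, below the 10% background), Psmd4 (−1.65) and the testis subunit Psma8. The ribosomal and oxidative phosphorylation medians rose to 1.23 and 1.55 with total counts, with 48 and 16 members called higher.

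Of 18 genes of the NRF2 pathway, the oxidant response, 7 were called lower and 0 higher (median −0.85, turning to 0.31 with total counts). The share called lower was 38.9%, beside 10% of all genes. Srxn1 (sulfiredoxin, −2.56 ± 0.43), Gsr (glutathione reductase, −1.82 ± 0.36) and Gclc (−1.65), which starts glutathione synthesis, were among them. Srxn1 stood at 24.9, 30.7 and 49.8 CPM in vehicle mice, 219, 296 and 315 CPM in BIO300 mice, 81.5, 211 and 363 CPM in vehicle + TBI mice and 103, 293 and 471 CPM in BIO300 + TBI mice, the order seen for Treml1. Nfe2l2, which encodes NRF2, had an interaction of −0.38 and was not called.

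The p53 targets, genes switched on by DNA damage, had a mean level of 3.05 to 3.11 in vehicle mice, 2.91 to 3.18 in BIO300 mice, 4.18 to 4.60 in vehicle + TBI mice and 4.41 to 4.71 in BIO300 + TBI mice. Cdkn1a, the arrest gene p21, stood at 0.93, 1.64 and 2.23 CPM in vehicle mice, 1.04, 2.42 and 2.84 CPM in BIO300 mice, 16.0, 25.5 and 76.6 CPM in vehicle + TBI mice and 21.2, 26.6 and 62.2 CPM in BIO300 + TBI mice. Irradiated and unirradiated mice did not overlap, which matches the labels, and the interaction of −0.52 ± 0.51 (adjusted p = 0.45) was not called. Of 26 p53 targets, 6 were called higher (Ddb2, Xpc, Aen, Sesn1, Tnfrsf10b, Rrm2b) and 3 lower (Phlda3, Psrc1, Gtse1), with a median of 0.00, and DESeq2 called 3 in each direction. The edgeR shares, 23.1% higher and 11.5% lower, were near the 19.5% and 10% over all genes tested. Phlda3, an inhibitor of Akt, stood at 1.34, 1.80 and 3.86 CPM in vehicle mice and at 11.9, 15.1 and 17.1 CPM in BIO300 mice, against 19.8, 28.1 and 39.6 CPM and 23.9, 40.4 and 56.0 CPM after TBI (interaction −2.27 ± 0.35, adjusted p = 0.00011). Aen, a nuclease of apoptosis, fell instead in unirradiated BIO300 mice, from 7.02, 7.52 and 9.06 CPM to 1.32, 3.31 and 4.54 CPM, with 23.6, 25.9 and 32.4 CPM and 26.5, 28.0 and 32.6 CPM after TBI (interaction 1.42 ± 0.28). In the BCL2 family, the survival gene Bcl2 was called higher (2.09 ± 0.35) and the death gene Bid lower (−1.57 ± 0.35), 1 each of 18.

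Of 30 interferon-stimulated genes, 6 were called lower (Isg15 −2.10, Rsad2 −1.93, Ifit2 −1.70, Ifit1 −1.62, Oas3 −1.49, Irf7 −1.12) and 2 higher (Mx1 1.61, Ddx58 1.11). The shares were 20.0% lower and 6.67% higher, beside 10% and 19.5% of all genes. The list median of −0.39 turned to 0.73 with total counts, where 0 were called lower and 9 higher. In odd-numbered mice alone 0 were called, with a median of 0.32. Of 25 immediate early genes, 7 were called higher (28.0%) and 2 lower (8.00%), beside 19.5% and 10% of all genes. Dusp2, a phosphatase of activated lymphocytes (2.05 ± 0.52), differed from most: its BIO300 log2 difference was −0.73 without irradiation and 1.33 with it. Ddit4, a stress gene that glucocorticoids raise, was called higher (1.06 ± 0.33, adjusted p = 0.0167) from the irradiated arm. It stood at 8.18, 14.3 and 19.0 CPM in vehicle + TBI mice and at 20.1, 27.2 and 28.4 CPM in BIO300 + TBI mice, which did not overlap, and at 8.01, 17.4 and 21.5 CPM and 10.5, 13.3 and 17.4 CPM without TBI. Its BIO300 difference with irradiation alone had an adjusted p of 0.52, and the interaction call was lost in 7 of 24 fits that left out 1 mouse. Of 11 glucocorticoid-responsive genes 2 were called higher, Ddit4 and Per1, a share of 18.2% near the 19.5% background. The Per1 call was lost in 11 of 24 fits that left out 1 mouse and with upper-quartile factors (0.97), and the Ddit4 call with DESeq2 (0.91), with upper-quartile factors (0.68) and without the mice with hepatocyte transcripts (0.73).

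Of 20 estrogen receptors and coregulators, 4 were called lower (20.0%) and 1 higher (5.00%), beside 10% and 19.5% of all genes. Esr2, the receptor to which genistein binds best, stood between 0 and 0.32 CPM in all mice (interaction −2.68 ± 1.25, adjusted p = 0.10) and was too low to compare. Ncoa4 (−1.69), known as a coactivator and as the receptor for ferritin turnover in red cells, Carm1 (−1.26) and Ncoa1 (−1.06) were called lower with the low-level Pgr. The Ncoa4 call was lost in 8 of 24 fits that left out 1 mouse, with total counts (−0.47) and in odd-numbered mice alone. The Carm1 call was lost with total counts (−0.05) and in the odd-numbered or even-numbered mice alone. Of 7 aryl hydrocarbon receptor genes, Tiparp was called higher (1.09). This call was lost without mouse 47, without mouse 55, with DESeq2 (0.97), with its size factors (0.97) and with upper-quartile factors (0.78). It was also lost in the odd-numbered or even-numbered mice alone. Of the lists not described above, interleukin 1 and inflammasome genes had 2 of 17 members called higher and 1 lower, heat shock proteins 1 and 1 of 17, collagen chains 3 and 1 of 40, structural noncoding RNAs 2 and 0 of 10, nuclear long noncoding RNAs 5 and 0 of 14, and small nucleolar and Cajal body RNAs with such symbols 22 and 1 of 76. The counts of called members by list are plotted against the background.

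**Figure D4:**
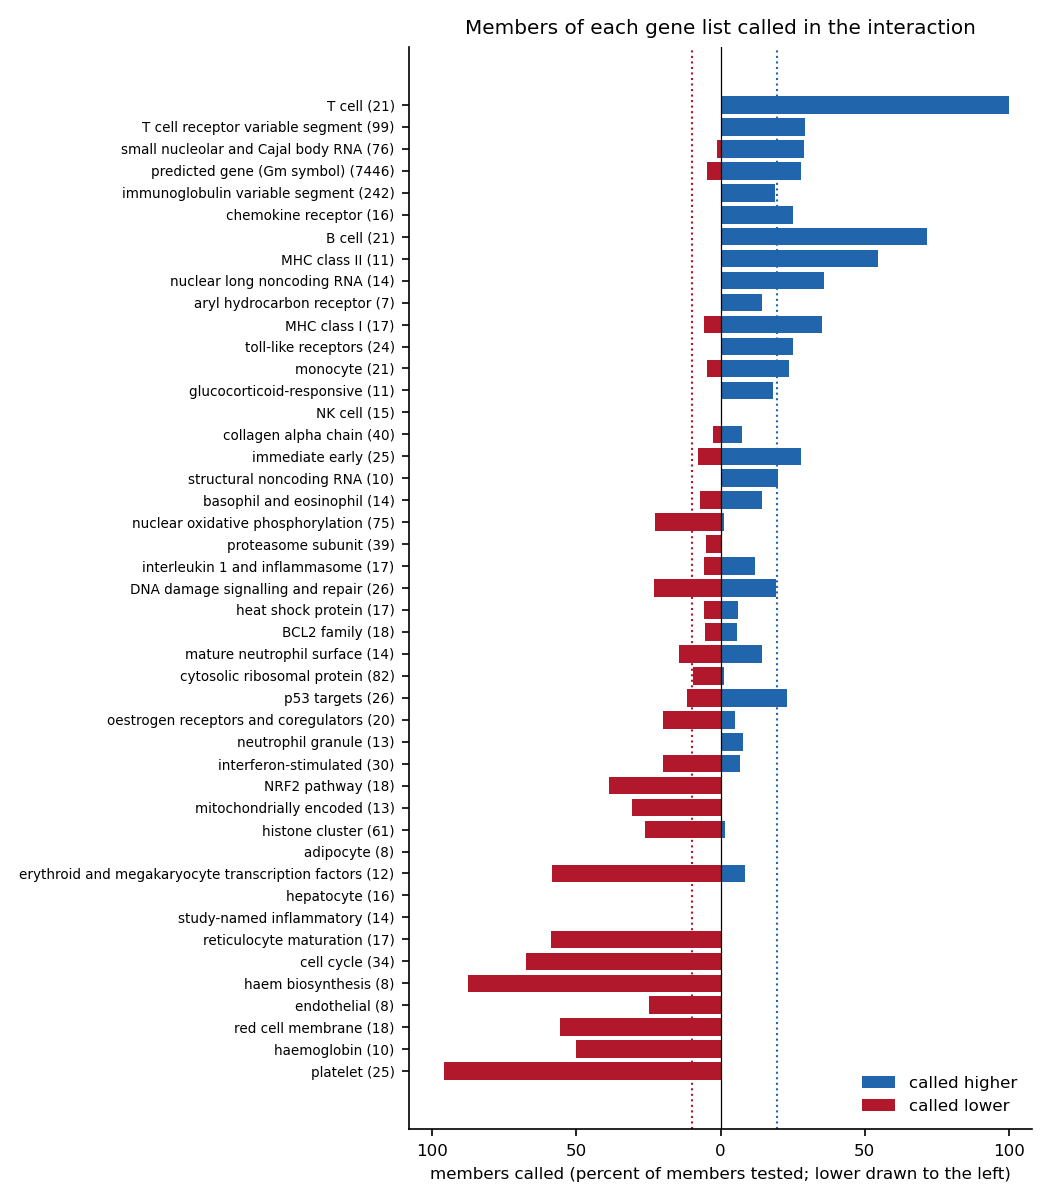
Percent of tested members of each gene list (rows) called higher or lower in the interaction (x axis), with dotted lines at the shares over all 26875 genes tested, 19.5% higher and 10% lower. Platelet (96.0% lower) and T cell genes (100% higher) lie farthest from these lines.

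The largest values called higher belonged to heart and skeletal muscle genes and rested on 1 mouse. Tnni3 (13.6 ± 4.42), Actn2 (10.5 ± 2.71), Ttn (9.10 ± 2.59), Cox6a2 (9.01 ± 2.56), Ckm (8.75 ± 2.51) and Fsd2 (8.64 ± 2.09) encode troponin I, sarcomere proteins, a muscle cytochrome oxidase subunit, creatine kinase and a muscle protein. In BIO300 + TBI mouse 57, Ttn was at 4443 CPM, Tnni3 at 485, Ckm at 312, Actn2 at 204, Cox6a2 at 105 and Fsd2 at 74.8 CPM. Group medians of these genes were below 2 CPM in all 4 groups. Without mouse 57, the calls of Tnni3, Actn2, Ttn, Cox6a2 and Ckm were lost, with interactions of 1.65, 0.28, −0.09, −0.73 and 0.32, and Fsd2 was still called. Mouse 57 was also 1 of the 5 mice with hepatocyte transcripts.

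Of the genes that the study named for inflammation and tissue injury, S100b (−2.11 ± 1.39), Egfr (−1.60 ± 2.61), C3 (−1.85 ± 1.61), Tgfa (1.20 ± 1.89), Clec4e (−0.09 ± 0.38) and Tlr3 (−0.13 ± 1.21) were not called. Tlr6 (1.62) and Tlr8 (1.15), which the study also named, were called higher, as given above. In the study-named list of 14 genes, which leaves out Tlr6 and Tlr8, 0 passed in edgeR. C3, a complement protein that the liver secretes, ranged from 15.4 to 110 CPM in vehicle mice, 6.12 to 64.1 CPM in BIO300 mice, 33.9 to 6266 CPM in vehicle + TBI mice and 28.8 to 1076 CPM in BIO300 + TBI mice. Its group medians were 24.1, 14.3, 60.1 and 46.8 CPM, and the highest mice were 29, 43, 51 and 57. Of 16 hepatocyte genes 0 were called (median −1.27), and of 8 adipocyte genes 0. Of 8 endothelial genes 2 were called lower (25.0%, beside 10% of all genes), Tie1 (−2.57) and Kdr (−2.29), while the junction gene Cdh5 (0.03) was not. The mean endothelial level ran from 0.57 to 1.13 in vehicle mice, 1.17 to 1.83 in BIO300 mice, 1.61 to 3.36 in vehicle + TBI mice and 1.66 to 3.63 in BIO300 + TBI mice, and the part of such cells was not tested. Without the 5 mice with hepatocyte transcripts, 10341 genes were called, 7055 higher and 3286 lower, of which 7322 were also called in the same direction with all mice.

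**Figure D5:**
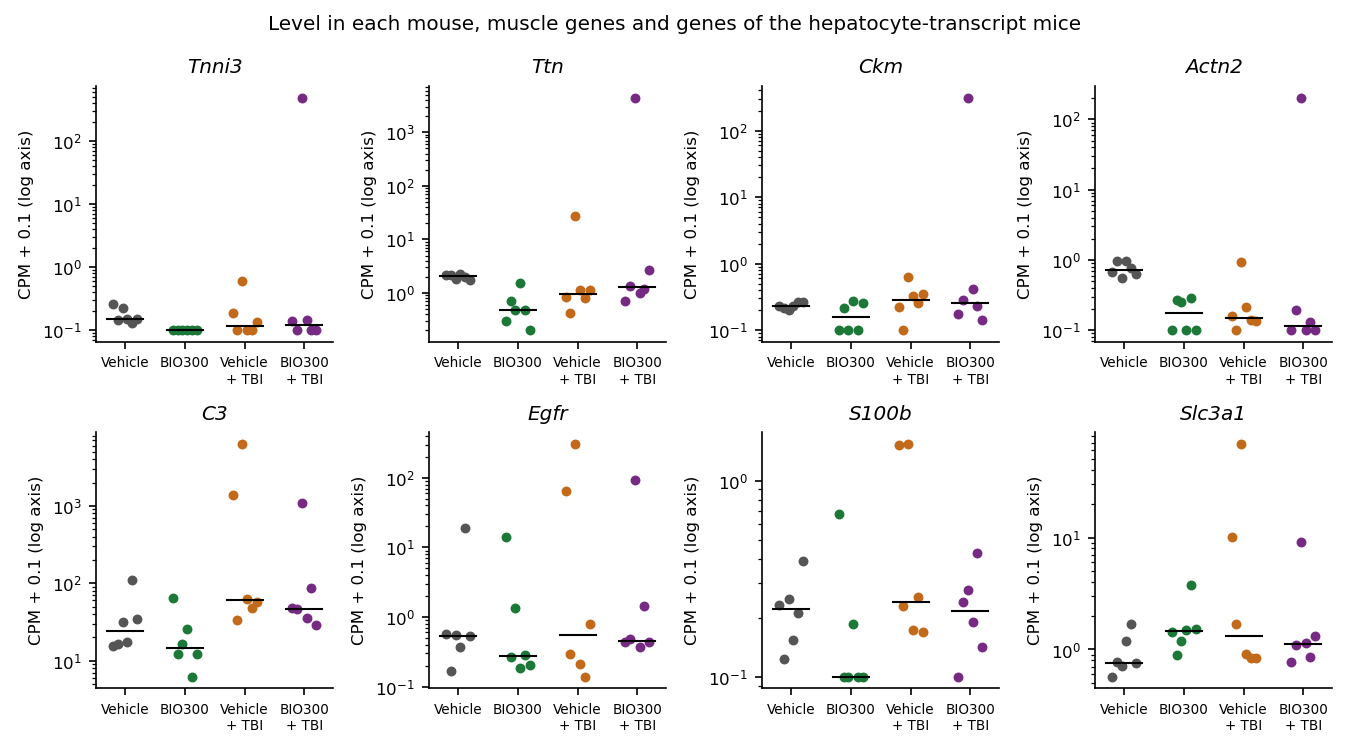
CPM of 4 muscle genes (Tnni3, Ttn, Ckm, Actn2), 3 genes named by the study (C3, Egfr, S100b) and Slc3a1 in each mouse (points, log axis, 0.1 CPM added) by group, with a line at the median. The muscle genes are high in 1 BIO300 + TBI mouse (Ttn 4443 CPM in mouse 57), and the highest mice of the groups for C3 are 29, 43, 51 and 57.

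Of the other genes with the most negative interactions at 10 CPM or more, Slc3a1 (−3.48 ± 1.35, adjusted p = 0.049), a kidney amino acid transporter gene, was high in mouse 51 and lost its call in 18 of 24 fits that left out 1 mouse. Fads2 (−3.34 ± 0.72), a fatty acid desaturase, stood at 2.29, 3.10 and 7.25 CPM in vehicle mice, 17.9, 21.8 and 22.7 CPM in BIO300 mice, 14.2, 22.7 and 174 CPM in vehicle + TBI mice and 14.2, 25.8 and 58.0 CPM in BIO300 + TBI mice. Pmp22 (−3.07 ± 0.83) had medians of 0.92, 6.95, 8.05 and 7.17 CPM in the same order. Ugt8a (−3.04 ± 0.50), an enzyme of galactosylceramide synthesis, had medians of 2.66, 17.4, 9.43 and 9.19 CPM. For the first 2 of these 3 genes vehicle mice were the low group, while for Ugt8a the irradiated groups lay between the unirradiated ones. Over all 118 named genes that were called, 102 kept their direction and call in each of the 24 fits that left out 1 mouse. The named genes were chosen largely by size or low p in the fit with all mice. This count therefore cannot be extended to the 7945 calls.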

How the data were processed

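Gene counts as deposited by the authors were used for 24 mice. According to the labels and the study's methods, trimming used Trimmomatic 0.36, mapping to the GRCm38 mouse build used STAR 2.5.2b, and unique reads on exons were counted by Subread 1.5.2. The 3 raw tables were joined by gene ID, and 12 columns that were repeated between tables held identical values. Columns of the authors' own comparisons (fold changes, p-values and normalized values) were not used.

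Counts were fitted with edgeR 4.0.16 in R 4.3.3 (TMM scaling, glmQLFit and glmQLFTest, 1 design over the 4 groups, no covariates, genes with at least 10 counts summed over the mice). P-values were adjusted over all 26875 genes by the Benjamini-Hochberg method, and a gene was called when its adjusted p was below 0.05 with a log2 difference over 1 in size. The animals were separate mice. DESeq2 1.42.0, other scalings, other filters, subsets of mice and each mouse left out in turn were alternatives. With 200 genes changed by a log2 of 2 in data simulated from these counts, the steps were tested on simulated data before use. The changes were put in the BIO300 + TBI group only and all other genes were level. The simulation therefore did not test scaling when as many genes differ as in these data. List levels are means of log2(CPM + 1). The depth of 18332440 to 38551640 counts a mouse limits genes below 1 CPM most.

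Named genes were the 6 largest calls in each direction with a group mean of at least 10 CPM and a full gene symbol, the 3 largest in each direction with a predicted or noncoding symbol, up to 3 called members with the lowest p of each of 45 lists, Esr2, Cdkn1a and genes the study named, 129 in all. Other list members are given by their list, and values of some members are not reported here. The comparison and its gene lists were chosen with earlier results of these data known. Promoter sequences and their starts came from RefSeq.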

Additional observations from a re-analysis of the deposited data

Results flagged for a closer look

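A difference between the arms was tested by the interaction itself, and 5248 genes had a higher and 2697 a lower BIO300 difference with TBI. Among the largest were Tnni3 (13.57), Actn2 (10.50), Ttn (9.10), Cox6a2 (9.01), Ckm (8.75) and Fsd2 (8.64) on the log2 scale in the higher direction, with Slc3a1 (−3.48), Fads2 (−3.34), Pmp22 (−3.07), Ugt8a (−3.04), Mcm10 (−2.99) and F11r (−2.91) in the lower. Among predicted and noncoding genes they were Snord17 (4.63), C230085N15Rik (3.75), E030022I16Rik (3.71), Gm24245 (−3.40), Gm25732 (−3.38) and Gm8797 (−3.20).

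A mouse stood far from its group when the gap to its nearest neighbor, divided by the range of the 6 mice, was above the 95% critical value of Dixon for 6 values. For independent values with a normal spread, chance gives this in about 1 in 20 groups. It was met by 83 of 516 group values of named genes and 24 of 180 group values of gene lists. Gene values were CPM without a log, and many of these ratios came from the same mice. The counts therefore cannot be set against that rate. Values from here on are these gap ratios.

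In BIO300 + TBI mouse 57 the ratio was 0.9999 for Tnni3, 0.9995 for Actn2, 0.9996 for Ttn, 0.9996 for Cox6a2, 0.9991 for Ckm, 0.9979 for Fsd2, 0.9339 for Slc3a1 and 0.6316 for Fads2. For further genes of the same mouse it was 0.9555 for Pmp22, 0.9884 for Egfr, 0.9437 for C3, 0.9606 for Tgfa, 0.9324 for Tlr3 and 0.8389 for Cdkn1a. In vehicle + TBI mouse 51 the ratio was 0.8174 for Tnni3, 0.866 for Actn2, 0.9734 for Ttn, 0.8628 for Slc3a1, 0.7434 for Fads2, 0.7887 for Pmp22, 0.661 for Mcm10 and 0.7871 for Egfr. For further genes of the same mouse it was 0.7838 for C3, 0.7915 for Tlr3 and 0.68 for Cdkn1a. In BIO300 mouse 43 the ratio was 0.8494 for S100b, 0.9166 for Egfr and 0.6612 for C3. In vehicle mouse 29 the ratio was 0.979 for Egfr, 0.7968 for C3 and 0.8592 for Tgfa. In BIO300 mouse 47 the ratio was 0.78 for Slc3a1. In BIO300 + TBI mouse 55 the ratio was 0.667 for E030022I16Rik. In BIO300 + TBI mouse 56 the ratio was 0.6885 for Gm24245. In vehicle mouse 25 the ratio was 0.6989 for Cox6a2. In vehicle mouse 30 the ratio was 0.6998 for Tlr3. In vehicle + TBI mouse 52 the ratio was 0.755 for Gm24245.

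Gene list levels met the same limit. In BIO300 + TBI mouse 57 the ratio was 0.7077 for T cell, 0.6276 for p53 targets, 0.7394 for MHC class II, 0.6443 for BCL2 family, 0.7276 for heat shock protein, 0.9264 for aryl hydrocarbon receptor, 0.7724 for hepatocyte and 0.7017 for endothelial. For further lists of the same mouse it was 0.8308 for study-named inflammatory, 0.6709 for mitochondrially encoded, 0.8184 for nuclear oxidative phosphorylation, 0.795 for proteasome subunit, 0.6407 for T cell receptor variable segment and 0.7929 for collagen alpha chain. In vehicle mouse 29 the ratio was 0.6765 for MHC class I, 0.6663 for aryl hydrocarbon receptor, 0.7556 for hepatocyte and 0.7303 for study-named inflammatory. In vehicle + TBI mouse 50 the ratio was 0.6519 for MHC class I and 0.7459 for toll-like receptors. In BIO300 mouse 43 the ratio was 0.6801 for study-named inflammatory. In BIO300 + TBI mouse 59 the ratio was 0.8294 for adipocyte. In vehicle mouse 25 the ratio was 0.6493 for histone cluster. In vehicle mouse 30 the ratio was 0.6472 for small nucleolar and Cajal body RNA.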

How the results depend on the processing

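No paired analysis was possible because the 4 groups share no animal number. Scaling and the subset of mice moved the counts most. Total counts gave 12208 interaction calls (11725 higher, 483 lower, of which 5731 were shared in direction with the 7945) and 11599 genes changed by TBI in BIO300 mice. The 12 odd-numbered mice gave 764 (476 higher, 288 lower), 747 of them shared, and the even-numbered mice 6965. The cause was not tested. DESeq2 gave 7772 interaction calls and 1 BIO300 call with irradiation, its own size factors in edgeR 7802, upper-quartile factors 7412, TMM factors from annotated symbols 8267, filterByExpr 6881 and no filter 7462. Leaving out 1 mouse gave 6906 (without vehicle + TBI mouse 50) to 9373 (without vehicle + TBI mouse 51) interaction calls, 0 BIO300 calls with irradiation, 10395 to 11820 without it, and 7158 to 9548 and 5773 to 7214 TBI calls in vehicle and BIO300 mice.

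Of 118 named genes called, 107 kept direction and call with DESeq2, 76 with total counts, 103 with upper-quartile factors, 112 without mice with hepatocyte transcripts and 18 in odd-numbered mice. These genes were chosen largely by their calls with all mice and do not stand for all calls. Total counts turned the direction of Clec4d (0.14), Bag3 (0.049), Rps2 (0.027), Clec4e (1.14), Tlr3 (1.05) and Cdkn1a (0.59). Without mice with hepatocyte transcripts, Cox6a2 (−0.32), S100b (3.07), Egfr (0.97), C3 (0.62) and Tlr3 (0.45) turned. Without BIO300 mouse 43, S100b (0.78), Egfr (1.33) and Tlr3 (0.023) turned. In even-numbered mice S100b (2.34), Egfr (0.96), Tgfa (−0.37) and Tlr3 (0.47) turned, and in odd-numbered mice Clec4e (0.10) and Cdkn1a (0.093). With 1 mouse left out, the log2 interaction ran from −0.091 to 11.8 for Ttn, −0.73 to 9.45 for Cox6a2, −2.59 to 0.78 for S100b, −6.49 to 1.33 for Egfr, −4.02 to 0.16 for C3, −2.06 to 2.19 for Tgfa, −0.30 to 0.020 for Clec4e and −1.98 to 1.28 for Tlr3. Egfr and C3 passed the thresholds without mouse 57.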
